A study of Mus musculus with 6 samples.

Results

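The 42 circular RNAs described here come from 3 host genes of the postsynaptic scaffold, Dlgap1 (16 circRNAs), Magi2 (15) and Cnksr2 (11), out of 10652 circRNAs measured in mouse hippocampus. They were picked as every row of the circRNA table that carries the Ensembl identifier of one of these genes. A circRNA is a covalently closed ring of RNA, formed when the splicing machinery joins the end of an exon back to an earlier splice site. The hippocampi came from adult male C57BL/6J mice, 8 to 10 weeks old at purchase and assigned to groups at random, with 3 libraries labelled Control and 3 labelled chronic unpredictable stress (CUS). CUS mice went through 4 weeks of mild stressors in random order, among them food or water deprivation, cold swimming, restraint and cage tilting. No transgene or drug is named for either group. The samples are called independent in the labels, without a statement that each is 1 mouse, so the spread between them may be partly technical. The 3 genes were selected on measured values of these same libraries, the differences between CUS and Control in their circRNA levels, in particular the lower Magi2 sum and the higher Cnksr2 sum. Differences between the groups in these genes are therefore given as a description and are not tested.

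The postsynaptic density is a protein mesh under the excitatory synapse that holds glutamate receptors in place and ties them to signalling enzymes and actin. Dlgap1 encodes SAPAP1 (also GKAP), an adaptor that binds the guanylate kinase-like domain of the PSD-95 family on one side and Shank proteins on the other. Magi2 encodes S-SCAM, a membrane-associated scaffold with several PDZ domains that binds SAPAP proteins, neuroligins and NMDA receptors. Cnksr2 encodes CNK2 (also MAGUIN), a scaffold of Ras signalling that binds both PSD-95 and S-SCAM. Long neuronal genes of this kind are known to yield many circRNAs, whose levels need not follow those of the linear messenger RNA or of the protein. Linear transcripts and proteins were not measured in the table used here.

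Levels below are 10 to the deposited log10 value, after the authors' division by a factor for each library, and a circRNA without a value is listed at 0. The 6 libraries held 3991 to 4606 circRNAs above 0, with 4329 to 4606 in Control and 3991 to 4273 in CUS, so each CUS library had fewer than each Control library. Summed levels over all circRNAs lay between 1990255 and 2050720. How many reads each value rests on is unknown, and a listed 0 does not show that a circRNA was absent. RNA was selected for poly(A), per the labels' protocols, and a ring has no tail of its own, which can lower and distort its recovery.

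Hippocampal identity was checked on the host genes of cell type markers. Circular products were found for 8 of 11 dentate granule cell markers (summed level 10678 to 14121 in Control and 13498 to 15687 in CUS) and 4 of 12 CA pyramidal marker symbols (3942 to 8237 and 2621 to 4107). The CA list names Nectin3 also as Pvrl3. They were found for 4 of 12 astrocyte markers (1085 to 1525 and 1710 to 2642), 4 of 13 interneuron markers (2088 to 4713 and 2052 to 7655) and 0 of 7 microglial markers. Counts were 3 of 7 for excitatory neurons and 6 of 13 for the oligodendrocyte lineage. For vascular and choroid cells they were 2 of 10, and for neighbouring cortex or thalamus 1 of 8. Defining genes of several types (Slc17a7 for excitatory neurons, Gad1 for interneurons, Aqp4 and Gfap for astrocytes) gave no circRNA among the rows analysed. Astrocyte marker sums were higher in each CUS library than in each Control library. CA pyramidal marker sums averaged 5978 ± 2156 in Control and 3304 ± 750 in CUS (SD, n = 3 per group), with overlap. The part of either in the Magi2 and Cnksr2 values was not tested. In bulk tissue, fewer cells of a type and less RNA per cell cannot be told apart.

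The 3 genes stood high among circRNA hosts. Dlgap1 lies on chromosome 17, 69969073 to 70821413, plus strand of GRCm38, and spans 852 kb. Its summed circRNA level, averaged over the 6 libraries, was 4475, rank 26 of 3772 hosts. Magi2 (chromosome 5, 19227036 to 20704792, plus strand) spans 1478 kb, the span of rank 16 among hosts, and its sum averaged 3449.6, rank 61. Cnksr2 (chromosome X, 157821436 to 158043294, minus strand) spans 222 kb and had a mean sum of 2783, rank 100. The median host had 2 circRNAs, a mean sum of 195 and a span of 74.1 kb. In circRNA number the genes ranked 15 (Dlgap1), 20 (Magi2) and 79 (Cnksr2), ranks shared with other hosts of the same number. The transcript with the longest coding sequence in GENCODE vM21 has 12 exons for Dlgap1, 22 for Magi2 and 22 for Cnksr2. In each gene the first intron of that transcript is the longest, at 91.1 kb in Dlgap1, 451 kb in Magi2 and 46.1 kb in Cnksr2. Positions are those of the genes, since circRNA coordinates were not used here.

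For 3 Magi2 circRNAs the gene list gives a partial position. mmu_circRNA007848, mmu_circRNA007850 and mmu_circRNA007852 are listed under Magi2 and under Gm3544, a processed pseudogene at chromosome 5, 20588596 to 20588900. In GRCm38 this pseudogene lies inside intron 16 of the Magi2 transcript with the longest coding sequence, which runs from 20569355 to 20600777, and it overlaps 0 annotated Magi2 exons. The same intron occurs in 8 of the 15 annotated Magi2 transcripts. The flanking coding exons are exon 16 (249 bases) and exon 17 (186 bases). Their joined ends are shown because they mark the one point inside a member gene to which the table ties a subset of its circRNAs. Lower case gives the last 30 bases of exon 16 (20569325 to 20569354) and capitals the first 30 bases of exon 17 (20600778 to 20600807), 5′ to 3′ on the plus strand, read from the GENCODE vM21 transcript.
Magi2 exon 16 to exon 17: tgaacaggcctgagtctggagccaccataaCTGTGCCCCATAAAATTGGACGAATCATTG
Whether a ring contains these exons cannot be read from the table. The 3 circRNAs together were at 686, 648 and 287 in Control replicates 1 to 3 and at 625, 0 and 149.5 in CUS replicates 1 to 3. The other 12 Magi2 circRNAs together were at 4616, 4859 and 3011 in Control and at 2246, 2138 and 1432 in CUS, so the lower Magi2 sum did not hang on the circRNAs listed under both genes.

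Detection of the 42 circRNAs was partial, with 21 above 0 in at least 3 libraries and 21 in fewer. There were 4 above 0 in all 6 libraries, 17 in 3 to 5, 15 in 2 and 6 in 1. Of all 10652 circRNAs, 804 (7.55%) were above 0 in all 6 libraries, against 9.52% of the members, and 3930 (36.9%) in 1 library, against 14.3% of the members. By class, 39 members were exonic and 3 intronic (1 of Dlgap1 and 2 of Magi2). Sharing between libraries was also partial. Of the members above 0 in either of 2 libraries, both libraries held on average 52.1% within Control (46.4% to 55.2% over 3 pairs) and 34.1% within CUS (31.3% to 35.7%). Over all circRNAs the same shares were 34.1% and 31.9%. Magi2 had the lowest overlap within CUS, 17.4% on average, against 53.3% within Control.

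**Figure D1:**
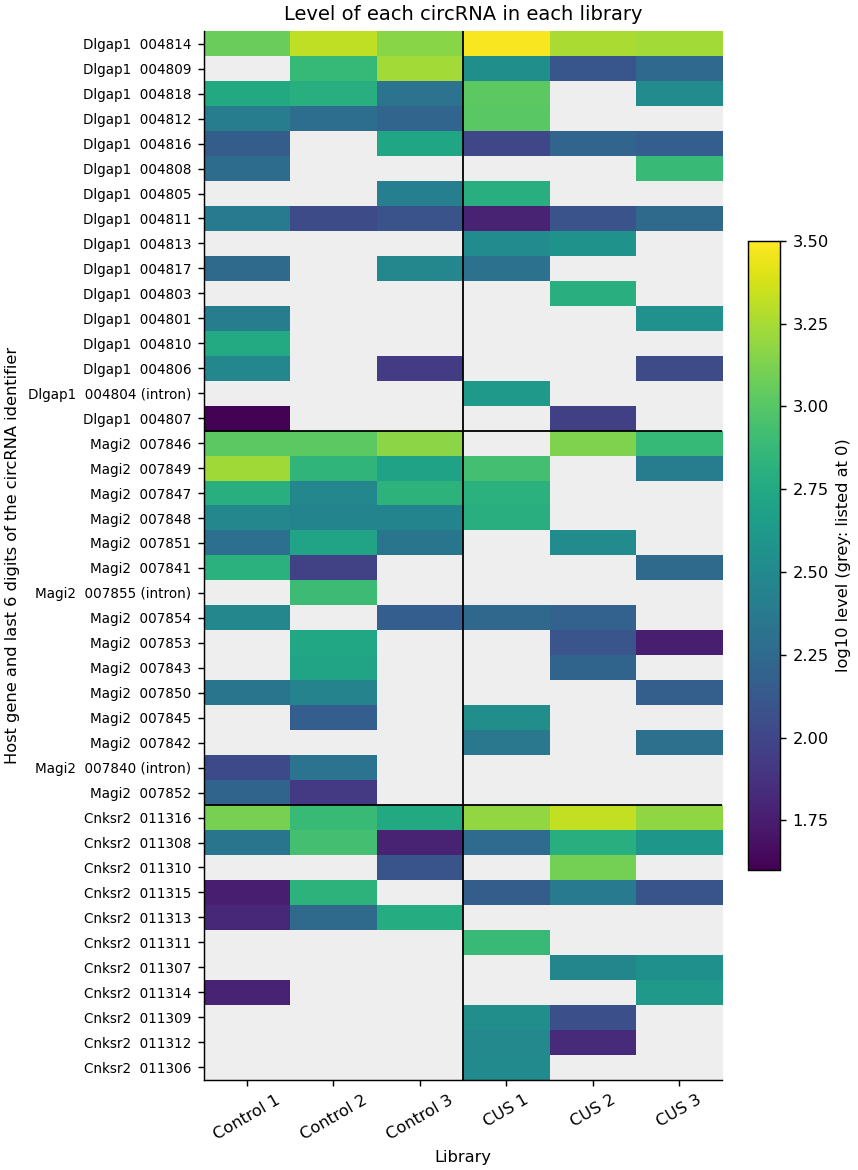
Level of each of the 42 circRNAs (rows, ordered by mean within each host gene) in the 6 libraries (columns), as log10 level by colour, with grey where the circRNA is listed at 0. Only 4 rows are filled across all libraries, mmu_circRNA004814 and mmu_circRNA004811 of Dlgap1 and mmu_circRNA011316 and mmu_circRNA011308 of Cnksr2, and the Magi2 block is emptier in the CUS columns than in the Control columns.

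Dlgap1, the adaptor between PSD-95 and Shank, had a circRNA sum of 3913, 3752 and 4838 in Control replicates 1 to 3 and of 7226, 3319 and 3800.0 in CUS replicates 1 to 3. The groups overlapped, and CUS replicate 1 alone stood above the rest. The group values were 4168 ± 586 in Control and 4782 ± 2131 in CUS (SD, n = 3 per group), with a fitted log2 difference of 0.12 and SE 0.36. The sign of that difference turned without CUS replicate 1 (log2 -0.22). It also turned when the leading circRNA was left out (-0.08), when only circRNAs above 0 in at least 3 libraries were summed (-0.16) and when the library factor was undone (-0.02).

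The leading Dlgap1 circRNA, mmu_circRNA004814, is exonic and carried 42.1% of the gene's level. It was at 1168, 2085 and 1444 in Control and at 3051, 1813 and 1731 in CUS. CUS replicate 1 was the highest of the 6 libraries, and the other CUS values lay inside the Control range. Its mean was 633 higher in CUS, while all other Dlgap1 circRNAs together differed by -18.7, with 2583 ± 1407 in CUS against 2602 ± 872 in Control (SD, n = 3 per group). The share of the leading circRNA in the Dlgap1 sum was 29.9%, 55.6% and 29.8% in Control and 42.2%, 54.6% and 45.6% in CUS, again with overlap.

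Unlike the leading circRNA, the next 3 Dlgap1 circRNAs were not above 0 in all libraries. mmu_circRNA004809 was at 0, 741 and 1713 in Control and at 354, 129 and 177 in CUS, and in Control replicate 3 it exceeded the leading circRNA. mmu_circRNA004818 was at 565, 623 and 210.1 in Control and at 1052, 0 and 329 in CUS. mmu_circRNA004812 was at 249, 194 and 165 in Control, a narrow range, and at 1026, 0 and 0 in CUS. In these 3 circRNAs the groups overlapped, and mmu_circRNA004812 was above 0 in CUS replicate 1 alone among the stress libraries.

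Lower Dlgap1 members included mmu_circRNA004811, which was present throughout at 241, 108 and 122 in Control and at 61.9, 121 and 182 in CUS. mmu_circRNA004816 was at 145, 0 and 532 in Control and at 100.3, 167 and 147 in CUS. mmu_circRNA004817 was at 181, 0 and 303 in Control and at 203, 0 and 0 in CUS, and mmu_circRNA004806 was at 304, 0 and 85.1 against 0, 0 and 109. Among these 4 there was no separation of the groups. The remaining 8 Dlgap1 circRNAs were above 0 in 1 or 2 libraries, at levels from 41.0 to 764, and summed to 1059.9, 0 and 263 in Control and to 1377, 1089 and 1125 in CUS. They included the intronic mmu_circRNA004804, at 419 in CUS replicate 1 and listed at 0 in the other libraries.

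**Figure D2:**
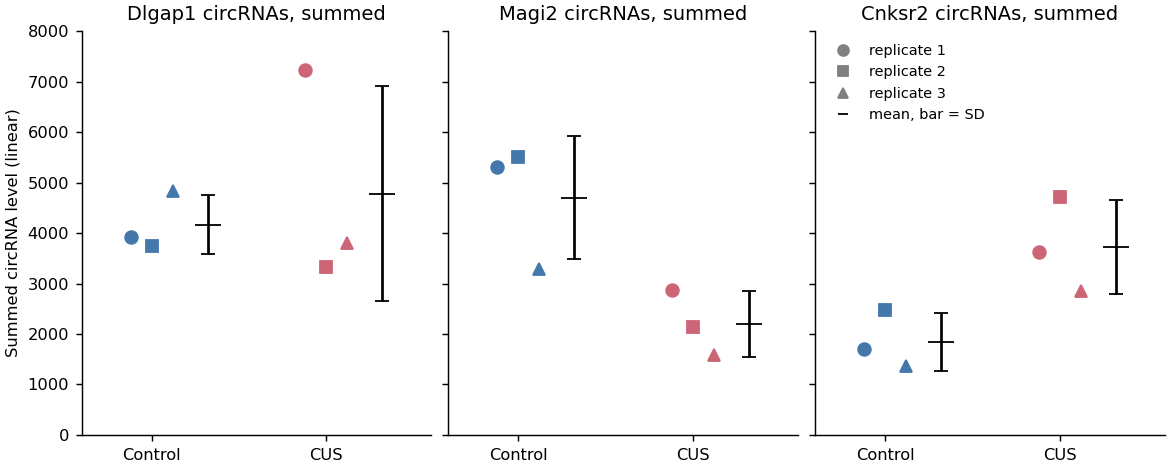
Summed circRNA level (linear scale) of Dlgap1, Magi2 and Cnksr2 in each library, with the replicate shown by marker shape, and the group mean with SD (n = 3) beside the points. The groups overlap for Dlgap1, while the 3 CUS libraries lie below the 3 Control libraries for Magi2 (highest CUS value 2871, lowest Control value 3298) and above them for Cnksr2 (lowest CUS value 2848, highest Control value 2471).

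Magi2, the S-SCAM scaffold, had a circRNA sum of 5301, 5507 and 3298 in Control and of 2871, 2138 and 1582 in CUS. Each CUS library was below each Control library. The group values were 4702 ± 1220.1 and 2197 ± 647 (SD, n = 3 per group), and the fitted log2 difference was -1.09 with SE 0.40. It stayed between -1.32 and -0.88 when any 1 library was left out. Of 2227 hosts tested, 5.75% had all CUS values below all Control values. The number of Magi2 circRNAs above 0 was 10, 13 and 6 in Control and 6, 5 and 6 in CUS, so 1 Control library was as low as the stress libraries. The stress libraries also held fewer circRNAs in all, and the part of this in the Magi2 count was not tested.

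The lower Magi2 sum was spread over many circRNAs. Of the 15, 13 had a lower mean in CUS and 2 a higher one, and the leading circRNA accounted for -488 of the difference of -2505 between the group means. That circRNA, mmu_circRNA007846, was at 1043, 1046 and 1479 in Control and at 0, 1361 and 742 in CUS. It carried 27.4% of the Magi2 level, was listed at 0 in CUS replicate 1, and lay within the Control range in CUS replicate 2. mmu_circRNA007849 was at 1702, 696 and 495 in Control and at 849, 0 and 253 in CUS, and it was the highest Magi2 circRNA in Control replicate 1 and in CUS replicate 1. mmu_circRNA007847 was at 616, 300.1 and 673 in Control and at 649, 0 and 0 in CUS.

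A further pair of Magi2 circRNAs was above 0 in every Control library and in 1 CUS library each. mmu_circRNA007848 was at 304, 285 and 287 in Control and at 625, 0 and 0 in CUS, so its highest value was in a stress library. mmu_circRNA007851 was at 198, 509 and 218 in Control and at 0, 328 and 0 in CUS. In Control replicate 2 it had the same level, 509, as mmu_circRNA007843, and whether these 2 share reads was not tested.

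Other Magi2 circRNAs in at least 3 libraries were lower. mmu_circRNA007841 was at 649, 93.3 and 0 in Control and at 0, 0 and 179 in CUS, and mmu_circRNA007854 at 302, 0 and 146 against 174, 159 and 0. mmu_circRNA007853 was at 0, 552 and 0 in Control and at 0, 126 and 57.1 in CUS, and mmu_circRNA007850 at 217, 279.9 and 0 against 0, 0 and 149.5. Groups overlapped for each of these, so no single Magi2 circRNA separated the groups as the sum did. The other 6 were above 0 in 1 or 2 libraries and summed to 270.4, 1745 and 0 in Control and to 575, 164 and 201 in CUS. Both intronic Magi2 circRNAs were among them, mmu_circRNA007855 at 797 in Control replicate 2 alone and mmu_circRNA007840 at 106 and 209 in Control replicates 1 and 2, and both were listed at 0 in CUS.

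The share of mmu_circRNA007846 in the Magi2 sum was 19.7%, 19.0% and 44.8% in Control and 0%, 63.6% and 46.9% in CUS. It took both the lowest and the highest share of the 6 libraries within the CUS group. The group means differed by 9.01 percentage points, and without CUS replicate 2 the difference was -4.38.

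Cnksr2, the Ras-linked scaffold, had a circRNA sum of 1695, 2471 and 1357 in Control and of 3620.4, 4709 and 2848 in CUS. Each CUS library was above each Control library, with 1841 ± 571 in Control and 3726 ± 935 in CUS (SD, n = 3 per group). The fitted log2 difference was 1.01 with SE 0.43, and between 0.82 and 1.24 with any 1 library left out. Over all tested hosts, 5.66% had each CUS value above each Control value. The number of Cnksr2 circRNAs above 0 was 5, 4 and 4 in Control and 7, 7 and 5 in CUS, although the stress libraries held fewer circRNAs in all.

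The leading Cnksr2 circRNA, mmu_circRNA011316, carried 46.9% of the gene's level. It was at 1294, 766 and 569 in Control and at 1545, 2111 and 1541 in CUS, and it was the only one of the 42 circRNAs with each CUS value above each Control value. Its mean was 1732 ± 328 in CUS against 877 ± 375 in Control (SD, n = 3 per group), with a fitted log2 difference of 1.01 and SE 0.61. Among 3896 tested circRNAs 5.78% separated the groups in this direction. mmu_circRNA011308, the other Cnksr2 circRNA above 0 in all libraries, was at 217, 849.8 and 61.2 in Control and at 183, 621 and 402 in CUS, with means of 376 and 402.

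A larger part of the Cnksr2 difference than that of the leading circRNA lay in circRNAs seen in few libraries. Those in 1 or 2 libraries, 7 in all, summed to 60.4, 0 and 125 in Control and to 1748, 1740.0 and 780.1 in CUS. Their mean sums were 61.8 in Control and 1423 in CUS, beside 877 and 1732 for the leading circRNA. Of these 7, 5 were above 0 in stress libraries alone. The same share over all circRNAs was not counted, so nothing is read from this. Among all 42 members, 9 were above 0 in CUS alone and 5 in Control alone. mmu_circRNA011310 was at 1261 in CUS replicate 2 and 125 in Control replicate 3, and mmu_circRNA011311 at 772 in CUS replicate 1 alone. mmu_circRNA011307 was at 296 and 356 in CUS replicates 2 and 3 and was listed at 0 elsewhere. With sums restricted to circRNAs above 0 in at least 3 libraries, the Cnksr2 log2 difference was 0.39 in place of 1.01.

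One Cnksr2 circRNA went the other way. mmu_circRNA011313 was at 65.2, 182 and 601 in the Control libraries and had no value above 0 under stress, the only member with each CUS value below each Control value. Among tested circRNAs 5.08% had that pattern. mmu_circRNA011313 met the rule of at least 3 libraries through Control alone, so its separation was set by that rule and is not evidence. mmu_circRNA011315 was at 57.9, 673 and 0 in Control and at 144, 237 and 125 in CUS, with overlap.

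The share of mmu_circRNA011316 in the Cnksr2 sum was 76.4%, 31.0% and 42.0% in Control and 42.7%, 44.8% and 54.1% in CUS. CUS values fell within the wide Control range. In Control replicates 2 and 3 other circRNAs led, mmu_circRNA011308 at 34.4% and mmu_circRNA011313 at 44.3% of the sum, while mmu_circRNA011316 led in all 3 CUS libraries. The group means differed by -2.58 percentage points, a difference that was 10.7 without Control replicate 1.

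**Figure D3:**
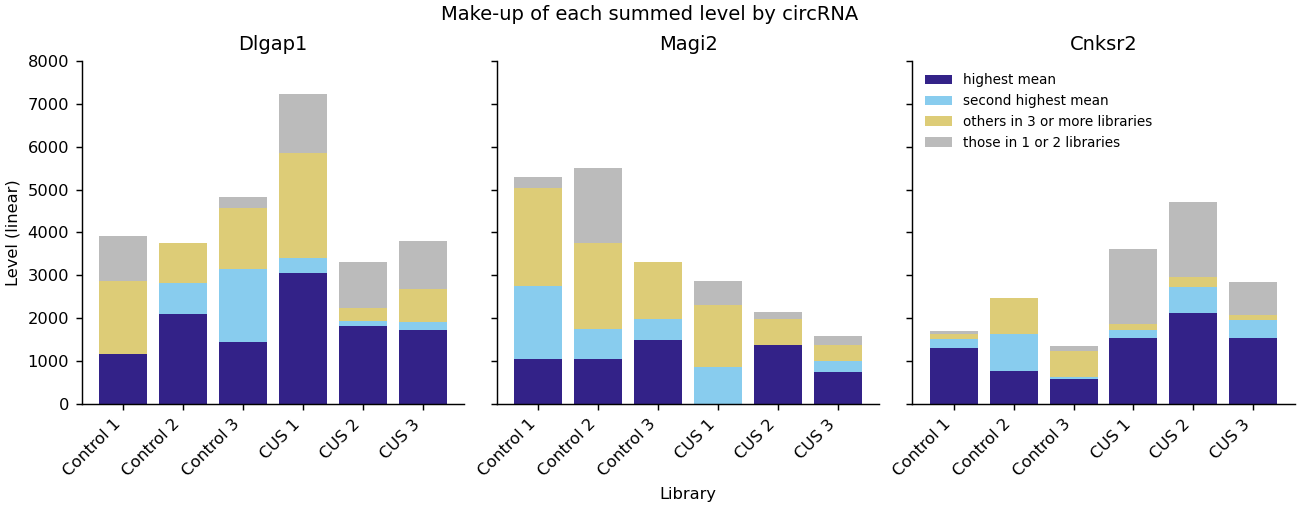
Summed level of each host in each library, divided into the circRNA of highest mean, that of second highest mean, the others above 0 in at least 3 libraries, and those above 0 in 1 or 2 libraries (bars from 0, linear scale). In Cnksr2 the CUS libraries are higher in the leading circRNA and in those seen in 1 or 2 libraries, and in Magi2 the leading circRNA is missing from CUS replicate 1.

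Among 124 hosts with at least 10 circRNAs, the median leading circRNA carried 26.0% of the mean host sum, with quartiles of 21.1% and 38.4%. Cnksr2 (46.9%) ranked 17 and Dlgap1 (42.1%) 25, both above the upper quartile, while Magi2 (27.4%) ranked 57. These ranks do not use the group labels.

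The opposite directions of Magi2 and Cnksr2 gave a ratio that set the groups apart. The Cnksr2 sum divided by the Magi2 sum was 0.320, 0.449 and 0.411 in Control and 1.26, 2.20 and 1.80 in CUS, so Magi2 circRNAs were the more abundant in each Control library and Cnksr2 circRNAs in each CUS library. Both genes were chosen with these sums in view, so the separation is not evidence beyond the sums. Levels of all 3 genes added together were 10909, 11729 and 9493 in Control and then 13718, 10166 and 8230.4 in CUS, with overlap and nearly equal means of 10710.4 and 10705.

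In limma's fit to the whole table, 21 of the 42 circRNAs entered, those above 0 in at least 3 libraries, and 21 did not. At an adjusted p under 0.05 0 of the 21 passed, and 0 of the 3896 in the whole table (0%). At an unadjusted p under 0.05 there were 234 circRNAs in the table (6.01%) and 1 member, mmu_circRNA011313. That member entered the fit through its Control values alone. By fitted value, 5 tested members were higher and 16 lower in CUS, where 47.2% of all tested circRNAs were higher and 52.8% lower. For Magi2 all 9 tested circRNAs had lower fitted values, for Dlgap1 2 of 8 were higher, and for Cnksr2 3 of 4 were higher. Median log2 differences were -0.75 for Dlgap1, -1.60 for Magi2 and 0.48 for Cnksr2, beside -0.12 over all tested circRNAs. These counts and medians leave out the 21 members not tested. By group means of all members, 9 of 16 Dlgap1, 2 of 15 Magi2 and 9 of 11 Cnksr2 circRNAs were higher in CUS. Of the host sums 0 of 2227 passed (0%), with 127 (5.7%) at an unadjusted p under 0.05, Magi2 and Cnksr2 among them. These figures come from the contrast by which the genes were chosen, and nothing is read from them.

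**Figure D4:**
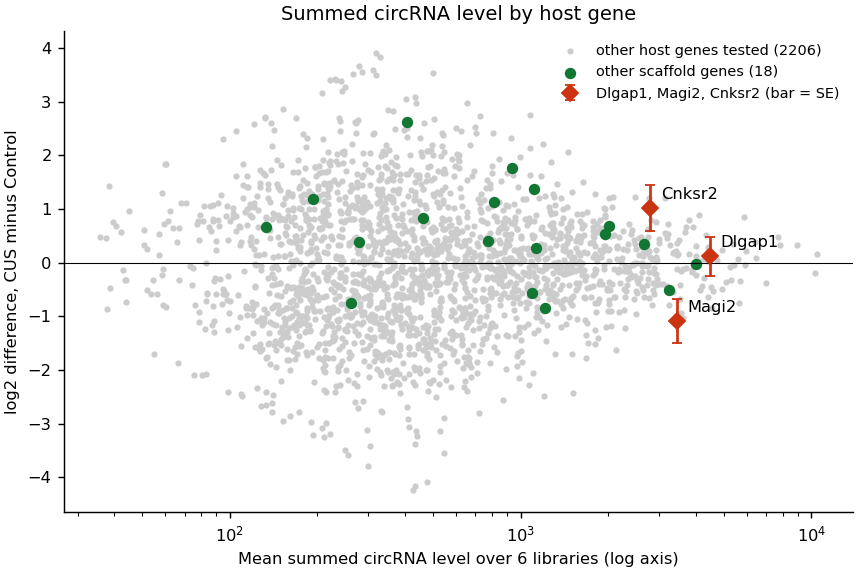
Mean summed circRNA level over 6 libraries (log axis) against the fitted log2 difference between CUS and Control for all 2227 tested host genes (grey), with 18 other scaffold genes (green) and the 3 described genes (red, bar = SE). Magi2 (-1.09) and Cnksr2 (1.01) lie near the edge of the cloud at their abundance, and Dlgap1 (0.12) near its middle. Magi2 and Cnksr2 were chosen with these differences in view, so their place follows from the choice.

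Other synaptic genes were counted from 3 lists, which were not limited to the postsynaptic density of excitatory synapses. The scaffold list held 34 genes, of which 23 had circRNAs and 21 were tested. By fitted value 15 were higher and 6 lower in CUS, where 47.8% of all tested hosts were higher and 52.2% lower. The median log2 difference of the list was 0.40, beside -0.06 over all hosts, and 0 passed limma's adjusted threshold. Without Dlgap1, Magi2 and Cnksr2, 13 of 18 were higher and 5 lower. Groups that did not overlap were not particular to Magi2 and Cnksr2: of the 18 other scaffold genes, 5 had each CUS value above each Control value (Lrrc7, Gphn, Sipa1l3, Homer1 and Sipa1l2) and 1, Dlg2, had each CUS value below, beside 5.66% and 5.75% of all tested hosts. Homer1, a scaffold that links Grm5 to Shank, was at 802, 197 and 596 in Control and at 914, 1337 and 1006 in CUS. The summed level of the scaffold genes other than these 3 was 22662, 20140.2 and 20299 in Control and 23986, 24816 and 26039.9 in CUS, each stress library above each Control library. The lists were drawn up with earlier results of these data known, and the sums were not tested.

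The scaffold genes of highest mean sum after Dlgap1 were Dlg1, Magi2 and Sipa1l1. Dlg1, which encodes SAP97, a relative of PSD-95, was at 4925, 2758 and 4079.7 in Control and at 2188, 6309 and 3814 in CUS, and the groups overlapped. Sipa1l1, a Rap GTPase-activating protein gene of the postsynaptic density, was at 3438, 2315 and 5245 in Control and at 3535, 1059.7 and 3835 in CUS, also with overlap. Other members of the same gene families had lower mean sums. Dlgap2 was at 1763, 1316 and 1503 in Control and at 3670.5, 1635 and 1837 in CUS over 12 circRNAs. Magi1, over 4 circRNAs, was at 410.4, 303 and 0 against 522, 0 and 1533. Cnksr3 had 1 circRNA, at 726 in Control replicate 3 and 253 in CUS replicate 3.

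**Figure D5:**
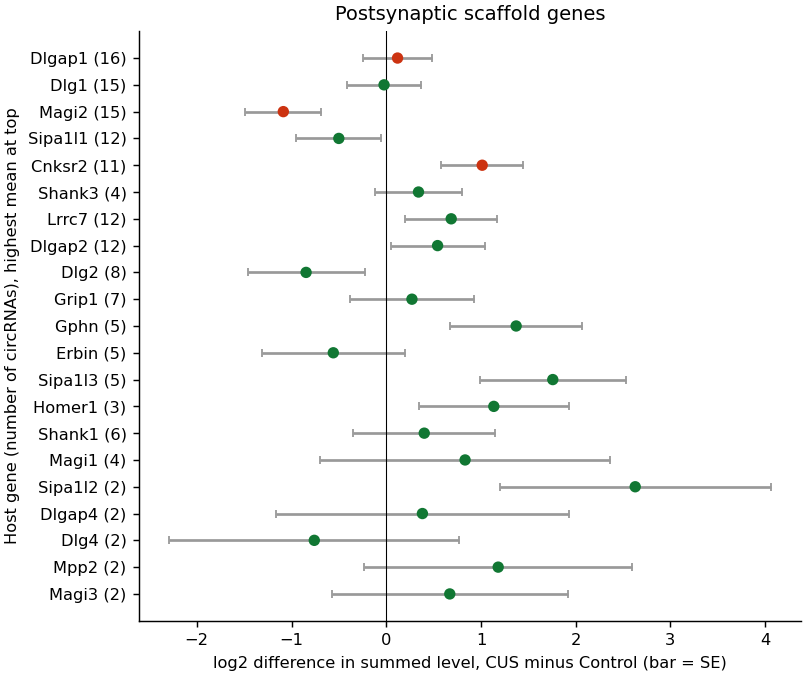
Fitted log2 difference in summed circRNA level, CUS minus Control (bar = SE), for the 21 tested scaffold genes, ordered by mean level with the number of circRNAs in brackets; Dlgap1, Magi2 and Cnksr2 are in red. Magi2 has the lowest value of the list (-1.09), Cnksr2 stands on the higher side (1.01), and Sipa1l2 has the highest value (2.63) with a wide SE of 1.43.

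In the list of postsynaptic signalling genes 8 of 20 tested hosts were higher and 12 lower in CUS, with a median log2 difference of -0.17 and 0 past the adjusted threshold. The 4 of highest mean sum, Arhgap32, Kalrn, Psd3 and Wasf1, which encode regulators of small GTPases and of actin, had overlapping groups. Arhgap32 was at 2335, 3774 and 2197 in Control and at 4564, 2469 and 6839 in CUS, and Kalrn at 2603, 2128 and 2732 against 4452, 1963 and 998. In the list of synaptic receptors and adhesion genes 10 of 21 were higher and 11 lower, with a median of -0.04 and 0 past the threshold. The 4 of highest mean sum were the glutamate receptor genes Grm5, Grik2 and Grin2b and the adhesion phosphatase gene Ptprd. Grik2 was at 2383, 6908 and 5298 in Control and at 3346, 2009 and 5262 in CUS, and Ptprd at 1741, 3290.4 and 2878 against 3824, 2851 and 1378, both with overlap. Grm5 was at 5485, 8738 and 6790.1 in Control and at 2848, 3894 and 6032 in CUS, and Grin2b at 3264, 1044 and 1676 in Control and at 5177, 4397 and 3221 in CUS. In Grm5 and Grin2b 1 library of one group reached into the range of the other.

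Hosts whose sums followed each gene most closely over the 6 libraries were sought among the 920 hosts above 0 in all 6, by Pearson's r on log2(sum + 45.5). For Dlgap1 these were Apc (r = 0.95), Tns3 (r = 0.94) and Trim24 (r = 0.93). For Magi2 they were Mbtd1 (r = 0.95), Rnf2 (r = 0.94) and Ndfip2 (r = 0.94). For Cnksr2 they were Adarb2 (r = 0.93), Bfar (r = 0.92) and Usp15 (r = 0.92). Spearman's rho for these pairs ran from 0.66 (Apc) to 1 (Tns3). Over 6 libraries and so many hosts, values this high are a description of likeness only. Mbtd1, a chromatin reader gene, was at 1659, 1759.9 and 1059 in Control and at 566, 645 and 201 in CUS. Adarb2, a gene of the RNA-editing enzyme family, was at 681, 1828 and 644 in Control and at 3269.5, 3147 and 1209.5 in CUS. Adarb2 is also in the interneuron marker list used above.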

How the data were processed

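The authors deposited log10 levels of 10652 circRNAs in 6 libraries, on values divided by a library factor. After taking 10 to each value, all values under 300 steps lay within 0.05 of a whole multiple of 1 step per library, and the lowest value was 17 steps in each. Relative depth, the inverse of the step, was 90.8% to 100% in Control and 81.9% to 89.8% in CUS. The submitters' processing notes list mm9, StringTie, DESeq and edgeR and give none of them a task, with the caller of the circRNAs not given in the sources used here. Symbols and positions come from GENCODE vM21 on GRCm38, which held 4467 of the 4483 host identifiers.

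Levels were summed per host over the circRNAs listing it. A circRNA with several hosts went to its only protein-coding host and was left out where there was no such host. Of the 10652 circRNAs, 9791 entered host sums. limma 3.58.1 (R 4.3.3, with trend and Benjamini-Hochberg adjustment) was fitted to log2(level + 45.5) over all circRNAs or hosts above 0 in at least 3 libraries. The fit was also run on simulated levels with normal noise around the measured means. The zeros of many measured rows were not modelled, so that run does not show how the fit performs on them. The pseudocount is the median of the libraries' lowest levels, and log2 differences are on that scale, which understates low circRNAs. Members, gene lists and tests were chosen with earlier results of these data known. Values in every library were given for members above 0 in at least 3 libraries. The 4 hosts of highest mean level were named per synaptic list. Dlgap2, Magi1, Cnksr3 and the scaffold genes whose groups did not overlap were added after their values were seen. Python 3.11.15, numpy 2.4.6, pandas 2.3.3 and matplotlib 3.10.9 were used.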

Additional observations from a re-analysis of the deposited data

How the results depend on the processing

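Of 72 alternative values for the 6 differences in host sum or leading share, 63 kept their direction and moved by less than the spread between replicates, 7 changed sign and 2 moved further. Not all of the 63 were able to move. No circRNAs of near-equal level were found to merge, and Dlgap1 and Cnksr2 had no circRNA listed under several hosts. A replicate block leaves the difference in host sum unchanged by design. In each of the 26 limma alternatives for the counts of calls, 0 circRNAs or hosts passed the adjusted threshold, with 32 to 234 circRNAs and 53 to 126 hosts at an unadjusted p under 0.05. The Dlgap1 log2 difference (0.12) changed sign with the library factor undone (-0.017), with only circRNAs above 0 in at least 3 libraries (-0.16), with the leading circRNA left out (-0.082) and without CUS replicate 1 (-0.22), and ran from -0.22 to 0.34 with 1 library left out. With only circRNAs in at least 3 libraries the Cnksr2 difference moved from 1.01 to 0.39, by the removal of circRNAs seen in 1 or 2 libraries. With 1 library left out it ran from 0.82 to 1.24, and for Magi2 from -1.32 to -0.88. The leading share of Dlgap1 moved from 9.04 to 23.4 percentage points with circRNAs in at least 3 libraries, and that of Cnksr2 from -2.58 to 23.9. With 1 library left out the share difference ran from 4.75 to 17.6 for Dlgap1, -4.38 to 27.4 for Magi2 and -12.0 to 10.7 for Cnksr2. The cause of the other sign changes was not tested.

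The groups share replicate numbers, but the labels do not say that a number pairs samples. Deviations of same-numbered libraries from their group means correlated at -0.00764, -0.0738 and 0.0126 over 804 circRNAs, so the numbers were not taken as pairs. With the replicate number as a block in limma, 0 circRNAs and 0 hosts passed, with 215 and 126 at an unadjusted p under 0.05. The differences of 0.12 for Dlgap1, -1.09 for Magi2 and 1.01 for Cnksr2 cannot change under this block. Each group holds every replicate number, so their sameness is no sign of stability.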
